A study of Mus musculus with 16 samples.

Results

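The expression of 10 target genes of the tumour suppressor p53 (Cdkn1a, Mdm2, Ccng1, Bax, Phlda3, Trp53inp1, Sesn2, Eda2r, Zmat3 and Bbc3) was measured in the cells of 2 mouse models of BRCA1-deficient breast cancer. The genes were chosen by name, as known p53 targets, and all 10 were found among the 19822 genes measured. End-stage mammary tumours came from untreated WB1P mice (WapCre;Brca1F/F;Trp53F/F) and WB1P-Myc mice (the same alleles plus Myc). The Cre recombinase is driven by the Wap promoter, which is active in mammary epithelium, so both models carry conditional Brca1 and Trp53 alleles in all cells and the deletion is directed to epithelial cells. No group with intact alleles and no age was given in the labels. Live cells were sorted and sequenced by Drop-seq, in which each transcript molecule is counted at its 3′ end by a unique molecular identifier (UMI). For each model, 4 droplet fractions of 1 suspension were sequenced, so each model is 1 sample, the fractions are technical, no cell is tied to a mouse in the labels, and the models cannot be told apart from their separate droplet runs. No p-value could therefore be given, and the error of each value is a 95% counting interval.

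p53 is a transcription factor that is stabilised after DNA damage and other stress. Its targets halt the cell cycle (Cdkn1a, which encodes the cyclin-dependent kinase inhibitor p21), mark p53 for degradation (Mdm2), or promote apoptosis (Bax, Bbc3, Trp53inp1), and others act in survival signalling, metabolism and RNA stability. Most of these genes also have basal expression and other activators, so a transcript of a target gene is not by itself a sign of p53 activity.

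The cells fell into 7 clusters, built without the 10 genes and without further lists of p53 targets and regulators. In WB1P, 671 cells were epithelial-like, 217 fibroblast-like, 38 endothelial-like and 381 macrophage-like. In WB1P-Myc the numbers were 1149, 274, 73 and 701, with 1046 Schwann-like cells and 248 cells of an unnamed cluster led by Slc38a4, Dlk1 and Gap43. The epithelial-like class stands for the tumour cells here, since the Trp53 status of single cells was not measured. It rested on different clusters in the models. In WB1P, 651 of its cells lay in a cluster led by Csn3 and Lcn2 with 10 leading epithelial markers, Epcam, Krt8 and Krt18 among them. In WB1P-Myc, 1143 lay in a cluster led by Gpx2, Gcat and H19 with 7 leading epithelial markers and none among its top 10 genes. The summed level of the 14 epithelial markers was 6932 counts per 1000000 UMIs (CPM) in the WB1P class and 2965 CPM in the WB1P-Myc class. That of the 10 Schwann markers was 139.9 CPM (124 to 157) and 881 CPM (851 to 913), and 3806 CPM in the Schwann-like cells. In epithelial-like cells the fibroblast, endothelial and macrophage marker lists reached between 0.66% and 1.18% of their level in their own class. Conversely, the epithelial markers reached between 3.28% and 6.63% of their epithelial-like level in the stromal classes. The HiSeq tables held 256985 to 4960334 UMIs in 1000 barcodes each, of which 65 to 950 were analysed as cells, and 1 of the analysed barcodes occurred in more than 1 table. Fraction 1 of WB1P was the smallest, with 2 fibroblast-like, 1 endothelial-like and 2 macrophage-like cells, so the stromal values of WB1P by fraction are given for fractions 2 to 4.

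To show the DNA next to which these genes are transcribed, the RefSeq promoter windows (GRCm38.p6, 250 bases before to 50 after the transcript start) were searched for the 10-base p53 decamer consensus, which is its own reverse complement and so covers both strands. Full p53 sites hold a pair of decamers. Of 8 members with a window, 4 held a decamer: Cdkn1a, Mdm2, Ccng1 and Bax. Counted by window, as a gene can have several, 4 of 11 member windows and 8.36% of the 32851 windows scanned held one. The windows scanned did not cover every chromosome. The Cdkn1a window at chr17:29090729-29091028 (plus strand) held 2 decamers, GGACTAGCTT and GAACATGTCT, separated by 12 bases. Of the windows scanned, 0.0731% held a pair no more than 13 bases apart. Only exact matches were counted and marked. The 10 bases directly after GAACATGTCT, tgacatgttc, miss the consensus by 1 base, so they are not in capitals. The Mdm2 window at chr10:117710709-117711008, the Ccng1 window at chr11:40755237-40755536 and the Bax window at chr7:45466849-45467148, all on the minus strand, held 1 each. These 4 sequences are shown because they hold a decamer. They run 5′ to 3′ along the gene, with the decamers in capitals.
Cdkn1a: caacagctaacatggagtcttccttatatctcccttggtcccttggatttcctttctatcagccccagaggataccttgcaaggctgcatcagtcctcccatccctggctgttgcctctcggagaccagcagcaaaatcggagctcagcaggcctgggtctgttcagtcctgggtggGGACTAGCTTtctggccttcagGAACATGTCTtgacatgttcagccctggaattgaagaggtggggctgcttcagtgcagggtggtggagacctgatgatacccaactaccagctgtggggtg
Mdm2: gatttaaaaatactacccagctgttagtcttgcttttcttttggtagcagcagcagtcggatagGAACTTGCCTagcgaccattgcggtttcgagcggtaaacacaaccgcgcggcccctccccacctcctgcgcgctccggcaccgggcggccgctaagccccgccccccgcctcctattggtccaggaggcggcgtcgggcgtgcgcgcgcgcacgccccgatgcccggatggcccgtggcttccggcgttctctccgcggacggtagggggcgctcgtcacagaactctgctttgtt
Ccng1: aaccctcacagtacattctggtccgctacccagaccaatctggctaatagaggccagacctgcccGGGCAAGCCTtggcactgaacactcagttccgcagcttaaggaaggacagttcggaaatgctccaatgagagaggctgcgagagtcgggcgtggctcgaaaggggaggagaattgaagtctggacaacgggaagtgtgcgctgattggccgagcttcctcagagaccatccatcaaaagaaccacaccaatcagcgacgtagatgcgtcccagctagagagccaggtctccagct
Bax: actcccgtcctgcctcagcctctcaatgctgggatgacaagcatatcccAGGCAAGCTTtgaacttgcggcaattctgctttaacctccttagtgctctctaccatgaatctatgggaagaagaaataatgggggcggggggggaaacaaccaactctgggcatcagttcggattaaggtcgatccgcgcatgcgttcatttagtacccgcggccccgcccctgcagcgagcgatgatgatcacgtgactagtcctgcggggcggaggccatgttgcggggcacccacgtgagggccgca
The windows of Phlda3, Sesn2, Bbc3 and Eda2r held no such letters, and a second Cdkn1a window further downstream held none. No binding was measured, so a match describes the sequence only.

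Cdkn1a (chr17:29090976-29100727 in GENCODE vM21, GRCm38) differed widely between cell classes. In WB1P epithelial-like cells it was at 112, 217, 152 and 129.8 CPM in fractions 1 to 4. In WB1P macrophage-like cells fractions 2 to 4 held 1714, 1366 and 1207 CPM. In WB1P-Myc the epithelial-like cells of the 4 fractions held 24.7, 16.1, 54.2 and 53.2 CPM. The WB1P-Myc macrophage-like cells held 584 to 636 CPM, and in neither model did the fractions of the 2 classes overlap. Summed over each class, the order was the same in both models: macrophage-like, endothelial-like, fibroblast-like, then epithelial-like cells. In WB1P these sums were 1404 CPM (1315 to 1497), 584 CPM (409 to 809), 218 CPM (182 to 259) and 166 CPM (149 to 185), and the intervals of the last 2 overlapped. In WB1P-Myc they were 603 CPM (561 to 647), 303 CPM (228 to 395), 149 CPM (126 to 176) and 37.3 CPM (31.2 to 44.3), with no overlap. The Schwann-like cells of WB1P-Myc lay between the last 2 at 82.3 CPM (74.2 to 91.0). The unnamed WB1P-Myc cells, at 28.5 CPM (20.4 to 38.8), overlapped the epithelial-like cells. Epithelial-like cells thus held 8.44-fold less Cdkn1a than macrophage-like cells in WB1P and 16.1-fold less in WB1P-Myc. The size of the latter depended on the processing, as given below.

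The share of cells with at least 1 Cdkn1a UMI was also higher in macrophage-like than in epithelial-like cells. In WB1P, 72.2% of macrophage-like and 21.8% of epithelial-like cells had one. After each cell was thinned to 600 UMIs, these shares were 53.3% (48.1 to 58.4) and 8.05% (6.10 to 10.4), with no WB1P cell left out. In WB1P-Myc, the unthinned shares were 49.5% and 6.61%, and the thinned ones 27.5% (24.3 to 31.0) and 2.00% (1.27 to 2.99), with 1 epithelial-like cell left out. The median UMIs per cell before thinning were 1443 and 1854 in WB1P and 1487 and 1868 in WB1P-Myc, so the class with more Cdkn1a was the shallower. No class is known to lack Cdkn1a, so how much of the lowest shares is free RNA could not be read from them.

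**Figure D1:**
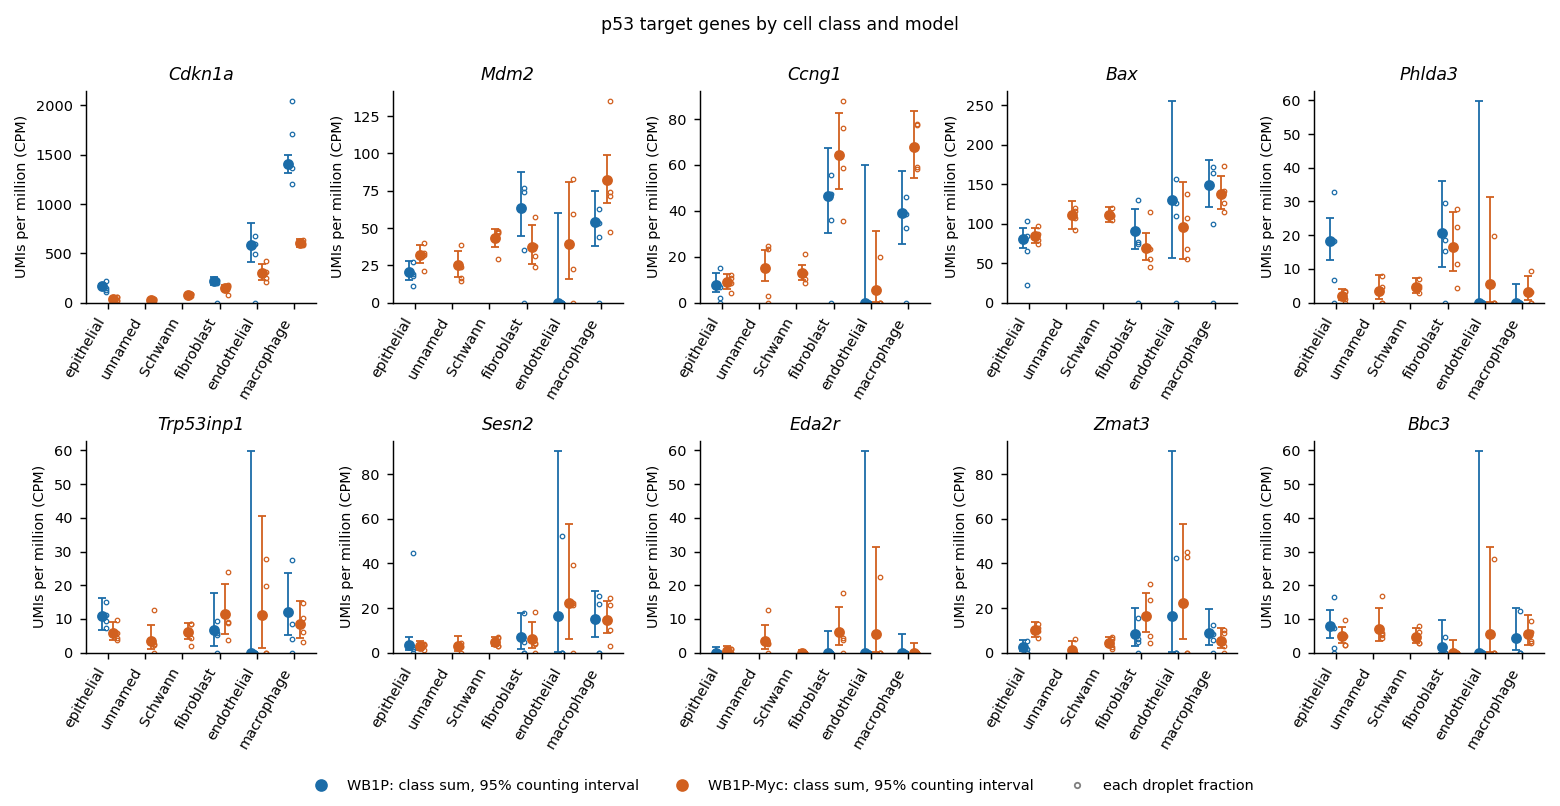
Each panel shows 1 gene in CPM (linear axis from 0) for the cell classes of WB1P (blue) and WB1P-Myc (orange). Filled points are sums over a class with exact 95% counting intervals and open points are the 4 droplet fractions. Cdkn1a is highest in macrophage-like cells (1404 and 603 CPM), Ccng1 in fibroblast-like and macrophage-like cells, and the Bax sums lie between 69.5 and 149 CPM.

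Ccng1 (chr11:40748552-40755311), which encodes cyclin G1, was low in all cells outside the stroma. In epithelial-like cells it was at 7.85 CPM (4.49 to 12.8, 16 UMIs) in WB1P and at 8.84 CPM (6.0 to 12.5, 31 UMIs) in WB1P-Myc. The WB1P epithelial-like fractions held 0, 6.82, 1.84 and 14.9 CPM. The Schwann-like cells held 12.8 CPM (9.75 to 16.5) and the unnamed cells 14.98 CPM (9.27 to 22.9). By contrast, fibroblast-like cells held 46.4 CPM (30.6 to 67.5) in WB1P and 64.3 CPM (49.3 to 82.5) in WB1P-Myc. Macrophage-like cells were at 39.1 CPM (25.5 to 57.3) and 67.8 CPM (54.3 to 83.7). In WB1P-Myc the epithelial-like fractions (4.30 to 11.9 CPM) overlapped neither the fibroblast-like (35.8 to 88.0 CPM) nor the macrophage-like fractions (58.4 to 78.1 CPM). In WB1P-Myc endothelial-like cells 1 UMI was counted (5.61 CPM, 0.142 to 31.3), below the intervals of the other stromal classes there. In those of WB1P 0 UMIs were counted, which allows up to 59.9 CPM. A difference from the other WB1P stromal classes was thus not detectable at this depth.

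Mdm2 (chr10:117688875-117710758), whose product is the ubiquitin ligase that degrades p53, was at 20.6 CPM (14.9 to 27.9) in WB1P epithelial-like cells and 31.9 CPM (26.3 to 38.4) in those of WB1P-Myc. Macrophage-like cells held more in both models, with 54.1 CPM (37.9 to 74.9) and 81.9 CPM (67.0 to 99.1). The fibroblast-like cells differed between the models in their relation to the tumour cells. They were at 63.5 CPM (44.7 to 87.6) in WB1P, above the epithelial-like cells, and at 37.4 CPM (26.2 to 51.7) in WB1P-Myc, where the 2 intervals overlapped. That difference between the models was not tested.

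Among the pro-apoptotic members, Bax (chr7:45461697-45466898), whose product permeabilises the mitochondrial outer membrane, was counted in every class. Its class sums lay between 69.5 CPM in WB1P-Myc fibroblast-like cells and 149 CPM in WB1P macrophage-like cells. Epithelial-like cells held 81.0 CPM (69.1 to 94.3) in WB1P and 84.4 CPM (75.0 to 94.6) in WB1P-Myc. Bbc3 (chr7:16308393-16318205), which encodes the BH3-only protein PUMA, had few UMIs in every class. It was at 7.85 CPM (4.49 to 12.8) in WB1P and 4.85 CPM (2.82 to 7.76) in WB1P-Myc epithelial-like cells. The fibroblast-like cells held 1 UMI in WB1P (1.72 CPM, 0.043 to 9.57) and 0 in WB1P-Myc, which allows up to 3.83 CPM. In both models the intervals of these 2 classes overlapped. The WB1P epithelial-like fractions of Bbc3 differed widely, at 0, 1.36, 7.34 and 16.4 CPM. Trp53inp1 (chr4:11156431-11174379), which encodes a stress-induced nuclear protein, lay between 3.57 and 12.03 CPM in every class with a UMI, and 0 UMIs were counted in WB1P endothelial-like cells.

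Phlda3 (chr1:135766119-135769136), whose product inhibits AKT at the membrane, set the models apart. WB1P epithelial-like cells held 18.2 CPM (12.8 to 25.0), near the 20.6 CPM (10.6 to 36.0) of the fibroblast-like cells. WB1P-Myc epithelial-like cells held 2.00 CPM (0.802 to 4.11) against 16.6 CPM (9.49 to 27.0) in fibroblast-like cells. Macrophage-like cells had 0 UMIs in WB1P, which allows up to 5.55 CPM, and 4 UMIs in WB1P-Myc (3.12 CPM). Within WB1P, the epithelial-like fractions differed widely, at 0, 6.82, 18.4 and 32.8 CPM.

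The other 3 members were sparse. Sesn2 (chr4:132492032-132510501), a stress-induced regulator of metabolism, had 7 and 10 UMIs in epithelial-like cells (3.44 and 2.85 CPM) and 10 and 19 UMIs in macrophage-like cells (15.03 and 14.8 CPM) of WB1P and WB1P-Myc. Its WB1P epithelial-like fractions differed widely, at 44.8, 2.73, 0 and 1.49 CPM. Zmat3 (chr3:32334792-32366014), which encodes an RNA-binding zinc finger protein, had 5 UMIs in WB1P (2.45 CPM, 0.797 to 5.73) and 35 in WB1P-Myc epithelial-like cells (9.98 CPM, 6.95 to 13.9). Eda2r (chrX:97333840-97377216), a receptor for ectodysplasin A2, had no UMI in any WB1P class, and in WB1P-Myc it had 6 in fibroblast-like, 5 in unnamed, 2 in epithelial-like and 1 in endothelial-like cells. A GENCODE gene on the same strand overlaps Bax and another overlaps Sesn2, and reads shared with them could not be separated here.

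Tumour cells were then compared with each stromal class within each model. A gene was called lower or higher where the class sums differed at least 2-fold and the 95% interval of their ratio excluded no change, among genes with at least 10 UMIs over both classes. Against fibroblast-like cells, 2 of the 9 members with enough UMIs were lower in WB1P epithelial-like cells and 0 higher, where 14.5% of all 11360 genes tested were lower and 17.1% higher. The 2 were Ccng1, with a log2 ratio of -2.56 (-3.55 to -1.62), and Mdm2, with -1.62 (-2.30 to -0.95). Without fraction 4 of WB1P the Ccng1 ratio was -3.39. In WB1P-Myc, 3 of 9 members were lower and 0 higher, beside 19.8% and 20.1% of all genes. They were Phlda3 at -3.06 (-4.58 to -1.70), Ccng1 at -2.86 (-3.54 to -2.22) and Cdkn1a at -2.0 (-2.35 to -1.65). Over 22 alternatives this Cdkn1a ratio ranged from -2.22 to -0.75, the latter in the MiSeq run, with 6 of them outside its interval. In WB1P the Cdkn1a ratio of -0.39 (-0.69 to -0.08) stayed under 2-fold. The WB1P-Myc count depended on the processing, from 0 in the MiSeq run (beside 4.67% of all genes) to 6 with all genes used for clustering (beside 19.05%). Nothing is read from it about the members as a set. In the MiSeq run 5 WB1P-Myc cells were epithelial-like, in a cluster with 233 WB1P cells. Ccng1 was called in both models. Stress genes can rise at tissue dissociation or before it, and no undissociated tissue was measured. The summed level of 13 stress genes, mostly immediate-early and heat-shock genes, was 12545 CPM in fibroblast-like against 7536 CPM in epithelial-like cells of WB1P. In WB1P-Myc the summed level was 10942 against 4665 CPM. The summed level of 10 cycling genes was 457 against 1185 CPM in WB1P and 749 against 2568 CPM in WB1P-Myc. The part of either in the ratios was not tested. The median log2 ratio of the 9 members was -0.39 in WB1P and -0.93 in WB1P-Myc, where Bbc3 entered at its bound. That of all genes tested with UMIs in both classes was 0.24 and 0.19.

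Endothelial-like cells gave the fewest calls and had the fewest UMIs (61618 in WB1P and 178249 in WB1P-Myc). The class also held pericyte markers, at 990.0 and 1840 CPM for the list of 8, against 737 and 781 CPM in fibroblast-like cells. In fraction 3 of WB1P-Myc these reached 4098 CPM and the fibroblast markers 2991 CPM, beside 4569 CPM of endothelial markers. Without that fraction, 2 members were still called in WB1P-Myc, beside 15.65% of all genes lower, with Cdkn1a at -3.34 (-3.88 to -2.78). In WB1P, 1 of 7 members, Cdkn1a, was lower at -1.81 (-2.31 to -1.27) and 0 higher, beside 8.57% and 3.92% of all genes. Only 2 of these 7, Cdkn1a and Bax, had a ratio. The rest had 0 UMIs in the endothelial-like cells and could not be called in either direction, so the count says nothing about them. In WB1P-Myc, 2 of 8 members were lower and 0 higher, beside 16.4% and 8.71% of all genes. These were Cdkn1a at -3.02 (-3.49 to -2.54) and Sesn2 at -2.98 (-4.77 to -0.85), the latter from 10 and 4 UMIs. Without fraction 1 of WB1P-Myc, 1 member was called, beside 15.34% of all genes lower. The stress genes were at 12091 CPM in WB1P and 8651 CPM in WB1P-Myc endothelial-like cells, and the cycling genes at 438 and 516 CPM, and their part was not tested.

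Macrophage-like cells gave the most calls. In WB1P, 4 of 9 members were lower in epithelial-like cells and 1 was higher, beside 14.6% and 21.3% of all genes. In WB1P-Myc, 4 of 9 were lower and 0 higher, beside 19.5% and 24% of all genes. The 4 lower members were Cdkn1a, Ccng1, Sesn2 and Mdm2 in both models. In the MiSeq run, with 5 WB1P-Myc epithelial-like cells, 1 member was lower in either model, beside 12.05% of all genes in WB1P and 5.79% in WB1P-Myc. After thinning to 600 UMIs per cell 2 were lower in WB1P-Myc, beside 19.54% of all genes. The main log2 ratios of Cdkn1a, Ccng1, Sesn2 and Mdm2 were -3.08 (-3.26 to -2.90), -2.32 (-3.31 to -1.36), -2.13 (-3.76 to -0.59) and -1.39 (-2.07 to -0.71) in WB1P. In WB1P-Myc they were -4.01 (-4.29 to -3.74), -2.94 (-3.58 to -2.33), -2.38 (-3.65 to -1.20) and -1.36 (-1.76 to -0.96). Without fraction 4 of WB1P, the WB1P Ccng1 ratio was -3.28. The WB1P Sesn2 ratio ranged from -3.29 to -0.91 over the alternatives, and the WB1P-Myc Cdkn1a ratio was -1.85 in the MiSeq run. Phlda3 was the member higher in WB1P epithelial-like cells, where 0 UMIs were counted in the macrophage-like cells. With the latter at the floor of 3 counts its log2 ratio was 2.01, with a lower limit of 1.64 from the counting error of its 37 UMIs. That call rested on fraction 4, without which this value was 0.62. Bax was lower in epithelial-like cells by less than 2-fold, at -0.88 (-1.25 to -0.50) and -0.71 (-0.98 to -0.43). The stress genes were at 4490 and 4383 CPM in macrophage-like cells, below their level in the epithelial-like cells, and the cycling genes at 430 and 989 CPM, and their part was not tested. The median log2 ratio of the 9 members was -1.39 in WB1P, with Phlda3 at its bound, and -0.71 in WB1P-Myc. That of all genes tested with UMIs in both classes was 0.32 and 0.29.

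**Figure D2:**
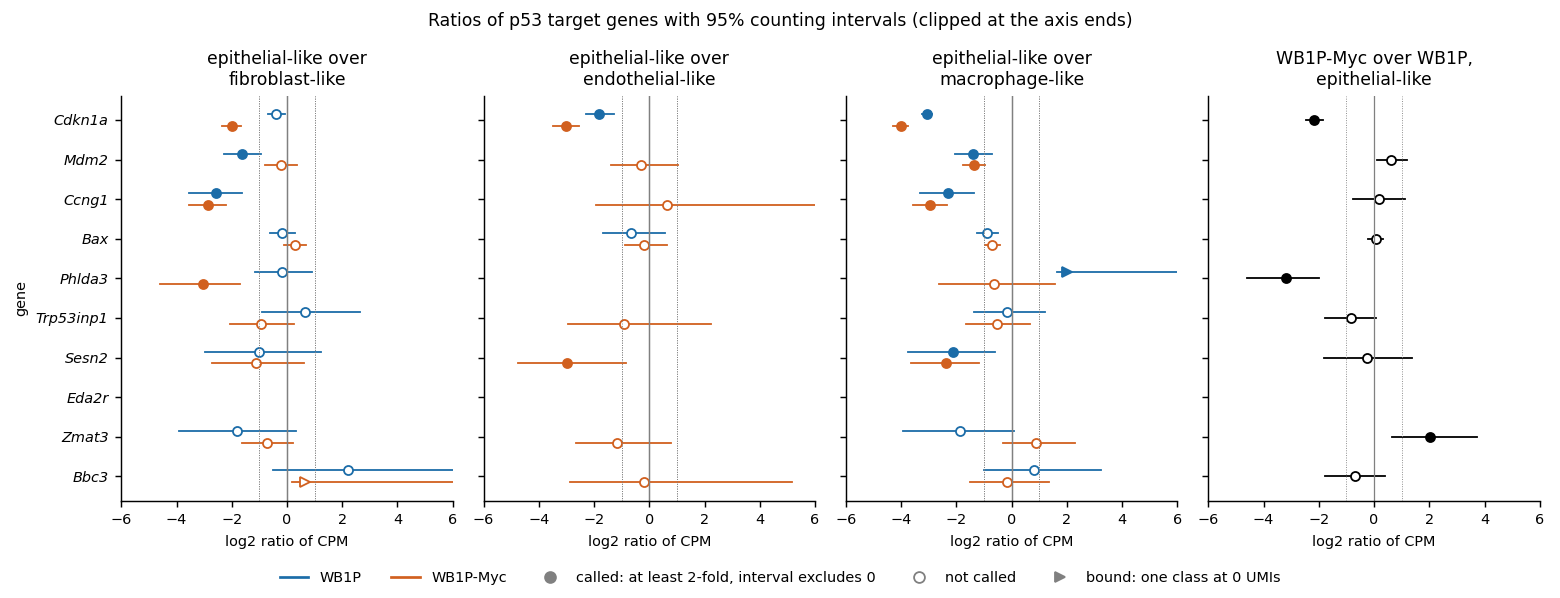
Log2 ratios of CPM for the 10 genes, with 95% counting intervals clipped at the axis ends. The first 3 panels compare epithelial-like cells with each stromal class within WB1P (blue) and WB1P-Myc (orange), the last compares the epithelial-like cells of the models. Filled symbols are called, open ones are not, triangles are bounds from a class with 0 UMIs, and genes under 10 UMIs or without a ratio are left out. Cdkn1a lies left of 0 in every panel, and Ccng1 in the fibroblast-like and macrophage-like panels.

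The tumour cells of the models were compared directly, to see whether the members differed with Myc. Of 9 members, 2 were lower in WB1P-Myc than in WB1P epithelial-like cells and 1 higher, beside 16.4% and 15.7% of all 13072 genes tested. Phlda3 was lower by a log2 ratio of -3.19 (-4.60 to -2.0) and Cdkn1a by -2.16 (-2.46 to -1.86), while Zmat3 was higher at 2.02 (0.67 to 3.73). The Zmat3 ratio rested on 5 UMIs in WB1P, was 3.70 without fraction 2 of WB1P and at least 0.96 after thinning to 600 UMIs per cell, and was not called under 4 alternatives. The Cdkn1a ratio was 0.39 (-1.91 to 1.99) in the MiSeq run, where WB1P-Myc held 5 epithelial-like cells, and below 0 in the other 25 alternatives. Those 5 lay in the cluster of 233 WB1P epithelial-like cells, so the MiSeq value does not compare the main classes. Of the 26 alternatives, 6 lay outside its main interval. The Schwann-like cells of WB1P-Myc held 82.3 CPM of Cdkn1a, against 37.3 CPM in its epithelial-like cells. The size of the ratio thus also depends on which cells stand for the tumour. The lower count was 0 in the MiSeq run and 1 after thinning, beside 0.86% and 13.6% of all genes. The fractions of the 2 models, which are technical, did not overlap for Cdkn1a and Zmat3, but did for Phlda3. The share of all genes without such overlap was not counted, so nothing is read from it. Ccng1 at 0.17 (-0.74 to 1.14) and Bax at 0.06 (-0.22 to 0.34) had intervals that held 0. Without fraction 1 of WB1P-Myc, 4 members were called lower, beside 15.92% of all genes. In the stromal classes, the log2 ratio of Cdkn1a in WB1P-Myc over WB1P was -1.22 (-1.36 to -1.08) in macrophage-like, -0.95 (-1.58 to -0.30) in endothelial-like and -0.55 (-0.90 to -0.19) in fibroblast-like cells. Phlda3 in fibroblast-like cells was at -0.31 (-1.48 to 0.90). The stress and cycling sums of the epithelial-like cells, given above, also differed between the models, as did their epithelial and Schwann marker sums, and the part of these in the ratios was not tested.

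Finer clusters, again built without the p53 lists, showed how Cdkn1a varied inside the classes. In WB1P-Myc, 2 finer clusters had leading Schwann markers. In 495 cells led by Mag, Mbp and Cldn11, genes of myelin, Cdkn1a was at 16.4 CPM (11.9 to 22.1). In 458 cells with 6 leading Schwann markers, but with Hapln1, Acan and Col2a1, genes of cartilage matrix, among their top 10 genes, it was at 177 CPM (158 to 198), near the level of WB1P epithelial-like cells. The fractions of the first ranged from 9.43 to 26.4 CPM and those of the second from 167 to 185 CPM. The summed cycling genes went the other way, with 1643 CPM in the first and 331 CPM in the second. Ccng1 did not separate them, at 13.8 CPM (9.73 to 19.0) and 11.6 CPM (7.07 to 17.9). Bax ran against Cdkn1a, at 133 CPM (120 to 148) and 82.8 CPM (69.8 to 97.6). Sesn2 ran with it, at 1.49 CPM (0.41 to 3.82) and 8.69 CPM (4.86 to 14.3). The summed stress genes were at 3946 and 5323 CPM, and their part was not tested.

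At this resolution no single cluster stood for the WB1P-Myc epithelial-like class. The 331 cells led by the keratins Krt17 and Krt79 held 55.8 CPM of Cdkn1a (45.1 to 68.3). In an unnamed cluster led by Gm23935 and Lars2, with a median of 1159 UMIs, 671 WB1P-Myc cells held 44.6 CPM (31.7 to 61.0), and 232 unnamed cells led by Mfng held 24.4 CPM (16.2 to 35.3). All 3 lay below the 149 CPM of fibroblast-like cells, whose number was the same at this resolution. Ccng1 lay between 5.72 and 15.8 CPM in every cluster outside the stroma with over 30 cells of a model.

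**Figure D3:**
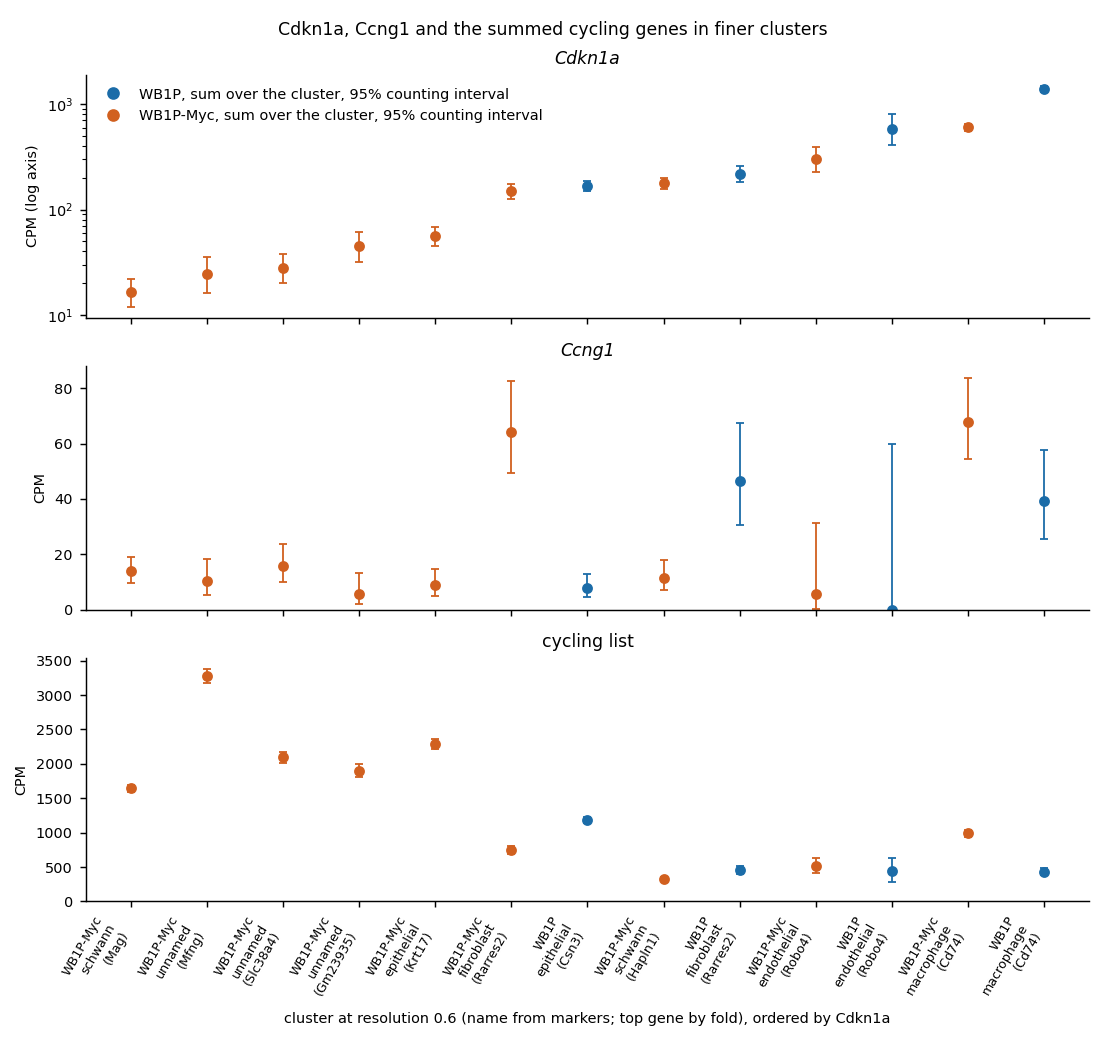
Cdkn1a (log axis), Ccng1 and the sum of 10 cycling genes (linear axes) in CPM for each finer cluster and model with at least 30 cells, ordered by Cdkn1a. Points are sums with 95% counting intervals, blue for WB1P and orange for WB1P-Myc. Cdkn1a ranges from 16.4 CPM in the Mag-led cluster to 1408 CPM in WB1P macrophage-like cells, and Ccng1 is above 30 CPM only in fibroblast-like and macrophage-like clusters.

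Trp53 itself and its regulators were then read in the same classes. Trp53 UMIs do not check the deletion, because Drop-seq reads the 3′ end of a transcript and whether that end lies inside the floxed part is not given. Trp53 was at 7.85 CPM (4.49 to 12.8) in WB1P and 13.4 CPM (9.84 to 17.8) in WB1P-Myc epithelial-like cells. Fibroblast-like cells held 42.9 and 40.5 CPM, macrophage-like cells 37.6 and 56.9 CPM, and endothelial-like cells 113.6 and 134.6 CPM. It was called lower in epithelial-like cells in all 6 comparisons with stroma, with log2 ratios from -3.85 to -1.59. The Schwann-like and unnamed cells held 22.8 CPM (18.6 to 27.6) and 16.4 CPM (10.4 to 24.6), also below the intervals of the WB1P-Myc stromal classes. Brca1, the other deleted gene, was at 5.40 and 12.5 CPM in epithelial-like cells, with 6 or fewer UMIs in every stromal class, and its 3′ tags carry the same limit. Myc was at 67.2 CPM in WB1P and 194 CPM in WB1P-Myc epithelial-like cells, a log2 ratio of 1.53 (1.26 to 1.81). In the Myc transgene of the study an IRES and luciferase follow Myc, so whether its 3′ tags count as Myc is not given.

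Cdkn2a, whose ARF product restrains MDM2 and whose INK4A product inhibits CDK4 and CDK6, showed the opposite pattern to Trp53. It was at 348.5 CPM (323 to 375) in WB1P and 191 CPM (176.5 to 206) in WB1P-Myc epithelial-like cells, and at 188 CPM in Schwann-like and 342 CPM in unnamed cells. No stromal class exceeded 25.9 CPM. It was called higher in epithelial-like cells in all 6 comparisons, with log2 ratios from 2.88 to 4.54, and the 2 products cannot be told apart by 3′ tags. Mdm4, a relative of MDM2 that inhibits p53, was at 49.6 and 31.4 CPM in epithelial-like cells and was called higher against WB1P fibroblast-like cells and lower against WB1P-Myc endothelial-like cells. Ppm1d, a phosphatase that opposes p53 signalling, was higher in WB1P-Myc than in WB1P epithelial-like cells, at 20.8 against 7.85 CPM, a log2 ratio of 1.41 (0.61 to 2.29). Of 15 regulators, 14 had enough UMIs in that comparison, and 6 were higher and 1 lower, beside 15.7% and 16.4% of all genes.

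**Figure D4:**
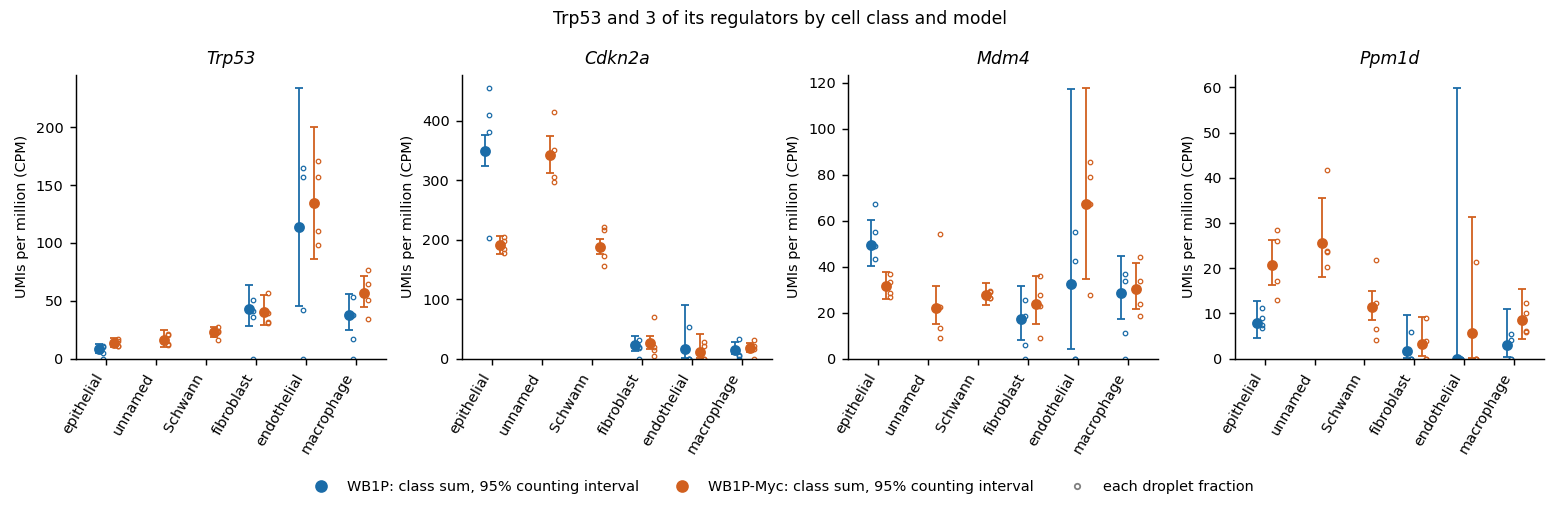
Trp53, Cdkn2a, Mdm4 and Ppm1d in CPM (linear axes from 0) by cell class for WB1P (blue) and WB1P-Myc (orange), as sums with 95% counting intervals (filled) and by fraction (open). Trp53 is lowest and Cdkn2a highest outside the stroma, with no Cdkn2a sum above 25.9 CPM in a stromal class.

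A second list of 33 p53 targets was counted to see whether the 10 members stood for the pathway. Against fibroblast-like cells, 7 of the 27 with enough UMIs were lower and 4 higher in WB1P, beside 14.5% and 17.1% of all genes. In WB1P-Myc, 12 of 32 were lower and 3 higher, beside 19.8% and 20.1%. Against endothelial-like cells 6 of 24 were lower and 0 higher in WB1P, beside 8.57% and 3.92% of all genes, and 9 of 30 lower and 1 higher in WB1P-Myc, beside 16.4% and 8.71%. Against macrophage-like cells 7 of 29 were lower and 5 higher in WB1P, beside 14.6% and 21.3%, and 11 of 32 lower and 8 higher in WB1P-Myc, beside 19.5% and 24%. In WB1P the median log2 ratio of the list was -0.27 against fibroblast-like, -0.95 against endothelial-like and 0.41 against macrophage-like cells, where that of all genes was 0.24, -0.29 and 0.32. In WB1P-Myc it was 0.06, -0.26 and -0.22, where that of all genes was 0.19, -0.19 and 0.29. Genes tested but with no ratio, because a class was at 0 under a floor too high to give a bound, were left out. The endothelial medians of the list thus rest on 18 of 24 and 26 of 30 genes. The medians of the list keep genes at a bound, while those of all genes leave out every gene at 0 in a class. None of the 33 was called in the same direction in all 6 comparisons, and genes in both directions were found in 5 of the comparisons. Nor was any of the 10 members called in all 6, where Cdkn1a reached 5. The share of all genes called the same way in all 6 was not counted. Between the models, 4 of 30 were lower in WB1P-Myc epithelial-like cells and 4 higher, beside 16.4% and 15.7% of all genes, with a median log2 ratio of -0.12 beside -0.0048 for all genes. Fas, a death receptor, was lower at -3.65 (-4.77 to -2.69), followed by Ak1 at -2.68 (-3.37 to -2.05), Plk2 at -2.43 (-2.79 to -2.09) and Ddit4 at -1.27 (-1.63 to -0.92). Zfp365 was higher at 3.80 (1.18 to 9.16, 24 and 1 UMIs), as were Sesn1 at 3.39 (1.43 to 6.49), Gtse1 at 2.02 (0.51 to 4.00) and Ptp4a3 at 1.86 (0.77 to 3.15).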

How the data were processed

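Counts of UMIs per gene and barcode, deposited by the authors as 1 table per fraction and run, were made with dropseq-tools 1.12 per the study's methods (mm10, per the submitters' processing notes; no aligner is given in the sources used here). The 8 HiSeq tables gave all values; the 8 MiSeq tables of the same fractions served as an alternative, and a merged table was not used. Following the study's filters, genes in at least 3 cells and barcodes with at least 450 and at most 4000 genes and under 20% mitochondrial UMIs were kept; this limit was the only step against doublets. Cells were scaled to 10000, log-transformed and clustered with scanpy 1.11.5 (30 principal components, 20 neighbours, Leiden resolution 0.3; 0.6 for finer clusters), leaving out the p53 lists. Clusters were named from fixed markers, with at least 3 leading. UMIs were summed by class and divided by the class total (CPM), with exact Poisson intervals; ratios have conditional binomial intervals, and a class at 0 took a floor of 3 counts. Shares have exact binomial intervals. All cover counting error only. Cells and fractions are not replicates, so no test between groups was run. The call rule was checked on counts simulated with counting error only. That check does not cover the spread between cells or fractions. Members, lists and rules were chosen with earlier results of these data known. All 10 members, Trp53, Mdm4, Cdkn2a and Ppm1d were named whatever their values. Other targets were named only if called in all 6 comparisons or, up to 5 a direction, between models. Brca1 and Myc were named because the genotypes alter them, and their 3′ tags do not check the alleles. Cop1 is listed under its older symbol Rfwd2, which was unmatched in a first clustering; the clustering was repeated without it. Alternatives used edgeR 4.0.16 (TMM) and DESeq2 1.42.0 size factors, other filters, seeds, classes and omitted fractions. The study gives 2 mice per model; the labels do not say whether a suspension pooled them.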

Additional observations from a re-analysis of the deposited data

Results flagged for a closer look

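In 4 of the sets of 4 fractions, 1 fraction lay far from the other 3. Chance alone flags about 1 in 20 such sets, and 55 values of a member in a class were looked at. Cdkn1a in fibroblast-like cells of WB1P was at 0 CPM in fraction 1, which held 2 such cells, against 201 to 232 CPM in the others. In Schwann-like cells of WB1P-Myc, fraction 4 was low for Cdkn1a at 65.4 CPM, against 86.9 to 88.6 CPM, and for Mdm2 at 29.0 CPM, against 46.7 to 47.9 CPM. Bbc3 in the unnamed cells of WB1P-Myc was high in fraction 3, at 16.7 CPM from few UMIs.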

How the results depend on the processing

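Of the counts of called members, 151 values under the alternatives were within 1.5 times the reported ones and 21 were not; the cause was not tested except where stated. The count below WB1P-Myc fibroblast-like cells depended most on the processing. Reported as 3, it was 6 with all genes used for clustering, 5 with at least 200 genes per barcode, 5 with under 10% mitochondrial UMIs and 0 in the MiSeq run. The share of all genes lower was 19.78% as reported and 19.05%, 20.2%, 19.33% and 4.67% in these settings. After unstable clusters had been seen, further settings were added. The count was 5 with all WB1P-Myc cells outside the stromal classes merged (beside 16.45% of all genes) and 3 to 4 with 3 other random seeds (19.6% to 21.91%). It was 5 (20.26%) with Cop1 kept among the clustering genes, as in the first clustering that was run. That 1 gene moved WB1P-Myc fibroblast-like cells from 274 to 383. With seeds 2 and 3 the endothelial-like cells merged with the fibroblast-like ones, and in the MiSeq run no endothelial-like cluster formed, so these gave no endothelial value. Below WB1P-Myc endothelial-like cells the count of 2 became 1 at resolution 0.6 and 1 after thinning, beside 17.45% and 10.04% of all genes. Below macrophage-like cells the count of 4 became 1 in the MiSeq run in either model, beside 12.05% of all genes in WB1P and 5.79% in WB1P-Myc. After thinning it was 2 in WB1P-Myc, beside 19.54%. The MiSeq count below WB1P fibroblast-like cells was 1 in place of 2, beside 11.73% of all genes. Between the models, the lower count of 2 became 0 in the MiSeq run and 1 after thinning, beside 0.86% and 13.6% of all genes. The higher count of 1 (Zmat3) became 0 with at least 200 genes, 0 in the MiSeq run, 0 after thinning and 0 with Cop1 kept, and 2 with no fold limit. The share of all genes higher was 14.63%, 2.77%, 12.06%, 14.37% and 26.77% in these settings. Leaving out 1 fraction gave 3 to 4 members below WB1P-Myc fibroblast-like, 1 to 2 below WB1P-Myc endothelial-like and 3 to 4 below WB1P macrophage-like cells, and 2 to 4 lower between the models. The share of all genes lower was, in that order, 19.26% to 19.74%, 15.34% to 15.69%, 14.02% to 14.72% and 15.33% to 16.93%. 1 called ratio turned: Cdkn1a between the models was 0.39 (-1.91 to 1.99) in the MiSeq run, whose WB1P-Myc epithelial-like class held 5 cells. These 5 lay in a cluster with 233 WB1P cells, led by Csn3 and Lcn2. The MiSeq cluster led by H19 and Gcat, with 337 WB1P-Myc cells, stayed unnamed. The MiSeq values of WB1P-Myc epithelial-like cells thus come from a cluster unlike that of the main values. The called Cdkn1a and Ccng1 ratios against stroma kept their direction in every alternative that gave a value. The size of the WB1P-Myc Cdkn1a ratios varied. In the MiSeq run, from the 5 cells named above, they were -0.75 against fibroblast-like and -1.85 against macrophage-like cells. With the Schwann-like cells added to the epithelial-like class, the ratio against endothelial-like cells was -2.27. No paired analysis was possible because fractions of 1 suspension are not replicates and no test was run. Depth limits the endothelial-like values most, where 0 UMIs in WB1P allow up to 59.9 CPM.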
